A study of Mus musculus with 3 samples.

Results

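The cells described here were 310 mouse fibroblasts of bladder assembloids that carried Mmp3 RNA, 103 from a library of 1-day assembloids and 207 from a library of 7-day assembloids. They were chosen from 16912 mouse cells of the assembloid libraries, 10694 of which were collagen-positive. A member had at least 10 UMIs (unique molecular identifiers, each counting 1 captured RNA molecule) of Col1a1 plus Col1a2 per 10,000 mouse UMIs. It also had at least 3 UMIs of Mmp3, at least 10 of Mmp3 plus Lum, none of Clec3b, under 2 of Dkk2, and under 10 of the cell cycle genes Top2a, Mki67, Birc5, Cdk1, Ube2c and Prc1 together. The levels of these genes in the members therefore describe the choice and are no finding.

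The study had sequenced dissociated cells by the 10x Genomics Chromium 3' method, version 3, in 3 libraries. The first was adult bladder of C57BL/6 mice aged 8 to 9 weeks, a pool of 8 bladders. The others were assembloids taken 1 day and 7 days after they were put together, each a pool of 3. An assembloid is a culture in which bladder epithelium is combined with stromal cells, and the labels give neither the strain nor the source of its stroma. With 1 library per age no test between ages was possible, and age cannot be told apart from pool or library. Intervals in brackets are 95% intervals for counting error only and leave out the spread between assembloids.

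Fibroblasts build and turn over the collagenous matrix beneath the bladder epithelium, and they send growth factors and cytokines to the epithelium, vessels and immune cells. Mmp3, stromelysin 1, is a secreted protease that cuts proteoglycans, fibronectin and several collagens and activates other metalloproteinases. Insulin-like growth factor 1, from Igf1, acts on neighbouring cells through the receptor Igf1r, and secreted binding proteins of the Igfbp family hold or release it.

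Mmp3 and its neighbour Mmp10, stromelysin 2, both lie on the plus strand of chromosome 9 (mm10), with Mmp3 at chr9:7445822-7455975 and Mmp10 at chr9:7502352-7510240 in the GENCODE annotation. The 250 bases before their RefSeq start sites are printed because both genes were at least 2-fold higher in the 1-day members. For Mmp3 this follows from the rule. Fos and Fosb, whose proteins bind the motif in capitals, were higher in 7-day members, while Mmp10 was lower there. A link of Fos or Fosb to Mmp3 or Mmp10 was not tested. The windows come from RefSeq (GRCm38.p6), at chr9:7445572-7445821 for Mmp3 and chr9:7502092-7502341 for Mmp10. Capitals mark TGAGTCA, the consensus of the AP-1 factors, which was searched on both strands (TGAGTCA or TGACTCA).
Mmp3 upstream: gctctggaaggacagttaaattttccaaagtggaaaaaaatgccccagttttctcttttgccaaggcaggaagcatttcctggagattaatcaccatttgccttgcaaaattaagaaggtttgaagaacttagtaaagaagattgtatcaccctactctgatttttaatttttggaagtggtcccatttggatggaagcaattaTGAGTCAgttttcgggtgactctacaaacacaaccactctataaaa
Mmp10 upstream: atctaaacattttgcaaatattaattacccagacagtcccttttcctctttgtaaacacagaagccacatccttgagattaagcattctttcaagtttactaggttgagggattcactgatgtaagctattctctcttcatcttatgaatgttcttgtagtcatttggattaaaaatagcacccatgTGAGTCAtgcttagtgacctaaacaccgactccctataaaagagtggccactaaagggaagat
The first base of the match lay 46 bases before the start of Mmp3 and 63 bases before that of Mmp10. Of all 32851 upstream windows of this length, 1466 held the motif (4.46%). Among the 15 genes with the highest ratios in the 1-day members, 10 had a window. Of these 2 held it, Igfbp2 and Mmp3, and Mmp3 is in the list by the rule. Of the 10 genes highest at 7 days 8 had a window and 0 held it, and of the 10 lowest 9 had a window and 2 held it, Il11 and Prss23. These are counts of genes, some with several windows, while the 4.46% counts windows. Counted by window, the motif was in 16.7% of 12, 0% of 8 and 17.6% of 17 windows of these lists. A match of letters is a description and shows no binding.

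The libraries held 8642, 9039 and 9548 barcodes (bladder, 1 day, 7 days) and 93560608 to 135955678 UMIs. The bladder shared 21 barcodes with the 1-day library and 30 with the 7-day library, and the assembloid libraries shared 114, but no barcode was a member in both. Members were deep cells, with a median of 18939 UMIs (6638 to 32156) at 1 day and 20544 (5946 to 47655) at 7 days, against 17477 and 15411 in the other collagen-positive, non-cycling cells. Their mitochondrial share was similar, at a median of 4.74% and 4.52%. Scrublet called 2 and 7 members doublets, and these were kept because the rule has no such gate. The 7-day library also held cells that stood with adult bladder. Of its 4572 collagen-positive cells, 27.6% had at least 95% bladder cells among their nearest bladder and 1-day neighbours, and 71.1% had at most 5%, here called assembloid-side cells. All 207 members of the 7-day library were assembloid-side. The Clec3b gate bears on this. Of the 787 non-cycling collagen-positive 7-day cells that carried Clec3b, 89.8% had at least 95% bladder cells among those neighbours. Values against the other cells of the 7-day library are therefore given against all of them and against assembloid-side cells, a set chosen after seeing the data.

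Members made up 1.68% [1.38 to 2.04] of the 6122 collagen-positive cells at 1 day and 4.53% [3.94 to 5.17] of the 4572 at 7 days. Among assembloid-side cells alone the 7-day share was 6.37%. With the gates applied per 10,000 mouse UMIs in place of raw UMIs, the shares were 0.784% and 2.43%, so the share was higher at 7 days under both. Of the 4681 non-cycling collagen-positive cells at 1 day, 258 had at least 3 Mmp3 UMIs, and 104 of these reached the sum of 10 with Lum. At 7 days 275 of 3830 had the Mmp3 UMIs and 225 reached the sum, so this step, which Mmp3 alone can also pass, removed fewer of the 7-day cells. The Clec3b gate then removed 1 and 15 cells and the Dkk2 gate 0 and 3. A further 41 and 42 cells met the rule but for their cell cycle genes.

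The adult bladder held no such cell. There 31 of 2337 collagen-positive cells had a Mmp3 UMI, at most 15 in a cell, and 12 had 3 or more. The sum with Lum was reached by 11, and all 11 carried Clec3b, the tetranectin gene that marks matrix fibroblasts of many adult tissues. The 0 thus follows from the Clec3b gate. The 0 of 2337 cells allow a share of up to 0.128% of collagen-positive bladder cells that meet the rule at this depth, which was lower, at a median of 7737 UMIs per mouse cell against 15210.5 and 9508 in the assembloid libraries.

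The 5 marker genes were carried unevenly. Mmp3 ranged from 3 UMIs to a median of 11 and a maximum of 60 per member at 1 day, and from 3 to 13 to 438 at 7 days. Lum, which encodes the collagen-binding proteoglycan lumican, ranged from 0 to a median of 4 and a maximum of 32 at 1 day, and from 0 to 9 to 68 at 7 days. Igf1 ranged from 0 to 4 to 16 and from 0 to 4 to 33. Most members thus held a few UMIs of Igf1 at either age, while the upper end of Mmp3 was set by single cells. Spon2, which encodes the matrix protein spondin 2, ranged from 0 to 3 to 35 and from 0 to 3 to 44. Cxcl5, a chemokine for neutrophils, was at 0 in 87 of 103 members and in 142 of 207, with at most 11 and 23 UMIs. All 5 markers were found in 7.77% of members at 1 day and in 21.3% at 7 days, and 4 of the 5 in 54.4% and 52.2%.

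**Figure D1:**
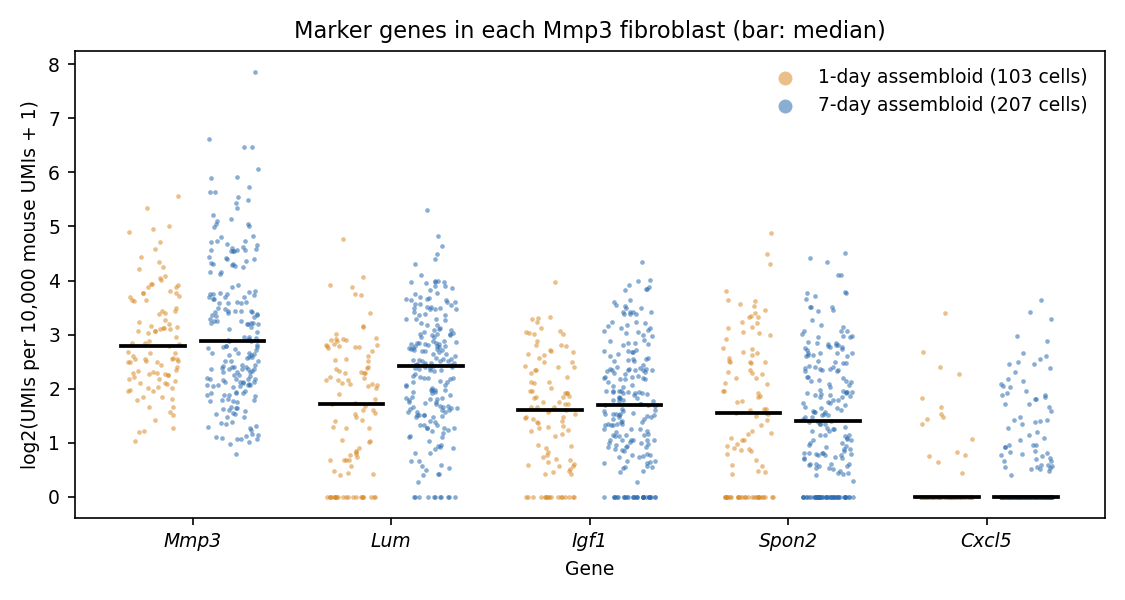
Level of the 5 marker genes in each member, as log2 of UMIs per 10,000 mouse UMIs plus 1; each point is 1 cell and the bar is the median of the library. Mmp3 is above 0 in all 310 cells by the rule, Lum sits higher in the 7-day library, Igf1 and Spon2 overlap between the libraries, and most cells lie at 0 for Cxcl5.

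With every cell thinned to 5000 UMIs, which left out no member, Igf1 was found in 61.2% [51.1 to 70.6] of members at 1 day and in 60.9% [53.9 to 67.6] at 7 days. Without thinning the shares were 83.5% and 85.5%. Spon2 stood at 54.4% and 55.1%, so neither gene separated the ages. Lum was found in 58.3% [48.1 to 67.9] and 80.2% [74.1 to 85.4], and Cxcl5 in 6.80% [2.78 to 13.5] and 21.7% [16.3 to 28.0]. The unthinned shares were 78.6% and 94.7% for Lum, 72.8% and 77.3% for Spon2, and 15.5% and 31.4% for Cxcl5. In the remaining collagen-positive cells without Clec3b or Dkk2, Igf1 was found in 15.8% of 3999 thinned cells at 1 day and in 26.4% of 1891 assembloid-side cells at 7 days. In cells of urothelial profile, which should lack these genes, the thinned share of each of the 5 markers was at most 1.32% in the assembloid libraries. Their median depths of 4861 and 8324 UMIs were below those of the members. No urothelial-profile cell of any library held 3 or more Mmp3 UMIs.

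All 10 genes of the fibroblast list were present, with a summed level of 15725 CPM (UMIs of the summed cells, scaled so that all mouse UMIs of the set add up to 1000000) at 1 day and 19423 CPM at 7 days, led by Col1a1, which the rule used. Pdgfra, the receptor that marks many fibroblasts, stood at 116 CPM in 1-day members against 32.4 CPM in the other collagen-positive, non-cycling cells, and at 157 CPM at 7 days against 62.3 CPM. It was found in 71.8% and 88.9% of members.

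Markers of other cell types were low with 1 exception. The summed levels at 1 and 7 days were 48.3 and 49.9 CPM for 10 endothelial genes, 89.8 and 134 CPM for 7 pericyte genes, 11.0 and 4.50 CPM for 8 glial genes, 12.6 and 25 CPM for 7 mesothelial genes, 17.9 and 22.5 CPM for 10 myeloid genes, and 4.20 and 4.95 CPM for 8 lymphocyte genes. The pan-leukocyte gene Ptprc was at 0 in both libraries. The 15 urothelial genes summed to 37.8 CPM at 1 day, with Epcam, Upk2, Upk3a, Cdh1, Trp63 and Shh at 0, and to 185 CPM at 7 days, with only Trp63 at 0. Upk3a, an umbrella cell gene, made 31.0 CPM of this and stood at 3941 CPM in urothelial-profile cells of the 7-day library. The exception was the smooth muscle list, at 2544 and 1291 CPM over 8 genes, of which Actg2 alone made 1792 and 893 CPM. The other collagen-positive cells held 2264 and 1945 CPM of that list, and Myh11, a defining gene of mature smooth muscle, stood at only 35.7 and 22.9 CPM in the members.

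The 11 members at 1 day with 3 or 4 Mmp3 UMIs held 331 CPM of Igf1, and 18 cells with 1 or 2 Mmp3 UMIs and the same sum with Lum held 419 CPM. At 7 days the values were 373 CPM in 25 such members and 382 CPM in 54 such cells. Cells with Mmp3 at 0 and at least 10 Lum UMIs held as much, with 375 CPM in 30 cells at 1 day and 435 CPM in 262 cells at 7 days, 252 of them assembloid-side. High Igf1 was thus shared with Lum-rich cells that had no Mmp3. Those cells held Spon2 at 584 CPM at 1 day and 419 CPM at 7 days, above the members. Pdgfra, at 109 and 130 CPM, and Ccl2, at 104 and 585 CPM, lay between the members and the other collagen-positive cells. So did Igfbp4, at 441 and 738 CPM, and Sfrp1, at 183 and 300 CPM. Crabp1 stood at 22.6 and 0.756 CPM in them. In cells with 1 or 2 Mmp3 UMIs and the same sum, Pdgfra stood at 155 CPM at 1 day and 106 CPM at 7 days. Sfrp1 stood at 432 and 476 CPM there, and Spon2 at 726 and 278 CPM. Each of these genes was above the members at 1 day and below them at 7 days. Igfbp4, at 604 and 854 CPM, and Ccl2, at 92.4 and 450 CPM, were below the members at both ages. At the other edge, members with a sum of 10 to 12 held 151 CPM of Igf1 at 1 day (29 cells) and 190 CPM at 7 days (27 cells). Cells with 3 or more Mmp3 UMIs and a sum of 7 to 9 held 202 CPM (43 cells) and 95.9 CPM (21 cells).

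Across members thinned to 5000 UMIs, Igf1 went with Lum, with a Spearman correlation over cells of 0.48 at 1 day (103 cells) and 0.27 at 7 days (207 cells). Igf1 and Spon2 gave 0.33 and 0.20. Mmp3 and Igf1 gave -0.17 and -0.01. The rule asked for a sum of Mmp3 and Lum, so a member low in Mmp3 had to be high in Lum, and these values describe the chosen cells of each library.

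Members were next set beside the other collagen-positive, non-cycling cells of the same library, 4578 at 1 day and 3623 at 7 days. A gene counted as different when the summed levels differed at least 2-fold with at least 20 CPM in the higher set. At 1 day 174 of 5643 genes were higher in members (3.08%) and 124 lower (2.2%), 5.28% in all. At 7 days 161 of 5800 were higher (2.78%) and 172 lower (2.97%), 5.74% in all. Against assembloid-side cells 206 of 5744 were higher (3.59%) and 157 lower (2.73%), 6.32% in all. Of the 174 genes higher at 1 day, 121 were also higher at 7 days against assembloid-side cells, which is 69.5% of the first list and 58.7% of the second. Of the 124 lower ones 76 were shared (61.3% and 48.4%). Because the rule chose the members from these same cells, the counts describe the set and test nothing. Among all genes measured the median log2 ratio was -0.07 at 1 day, -0.06 at 7 days and -0.05 against assembloid-side cells.

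The 15 genes with the highest ratios at 1 day were Mmp3, Lum, Lgi2, Dpep1, Eln, Hsd11b1, Igfbp4, Sparcl1, Fxyd6, Fbln1, Igf1, Fndc1, Dcn, Igfbp2 and Sfrp1. Mmp3 stood at 743 CPM against 14.6 CPM in the other cells at 1 day, and at 1189 against 12.5 CPM at 7 days, as the rule requires. Igf1 stood at 244 against 55.2 CPM at 1 day, a log2 ratio of 2.14. At 7 days it stood at 308 against 113 CPM, a log2 ratio of 1.45 [1.37 to 1.54]. Hsd11b1, the enzyme that regenerates active glucocorticoid, stood at 113 against 19.9 CPM and at 194 against 55.2 CPM. Dpep1, a membrane dipeptidase that also cleaves leukotrienes, stood at 97.1 against 16.8 CPM and at 110.4 against 34.6 CPM. Part of these genes were higher still in the adult organ, whose 2337 collagen-positive cells held more Lum (1484 CPM), Dcn (14576 CPM), Fbln1 (2480 CPM), Eln (545 CPM) and Dpep1 (284 CPM) than the members at either age. Mmp3 stood at 6.85 CPM there, Igf1 at 170 CPM, Sfrp1 at 156 CPM and Igfbp4 at 505 CPM, all below the members.

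**Figure D2:**
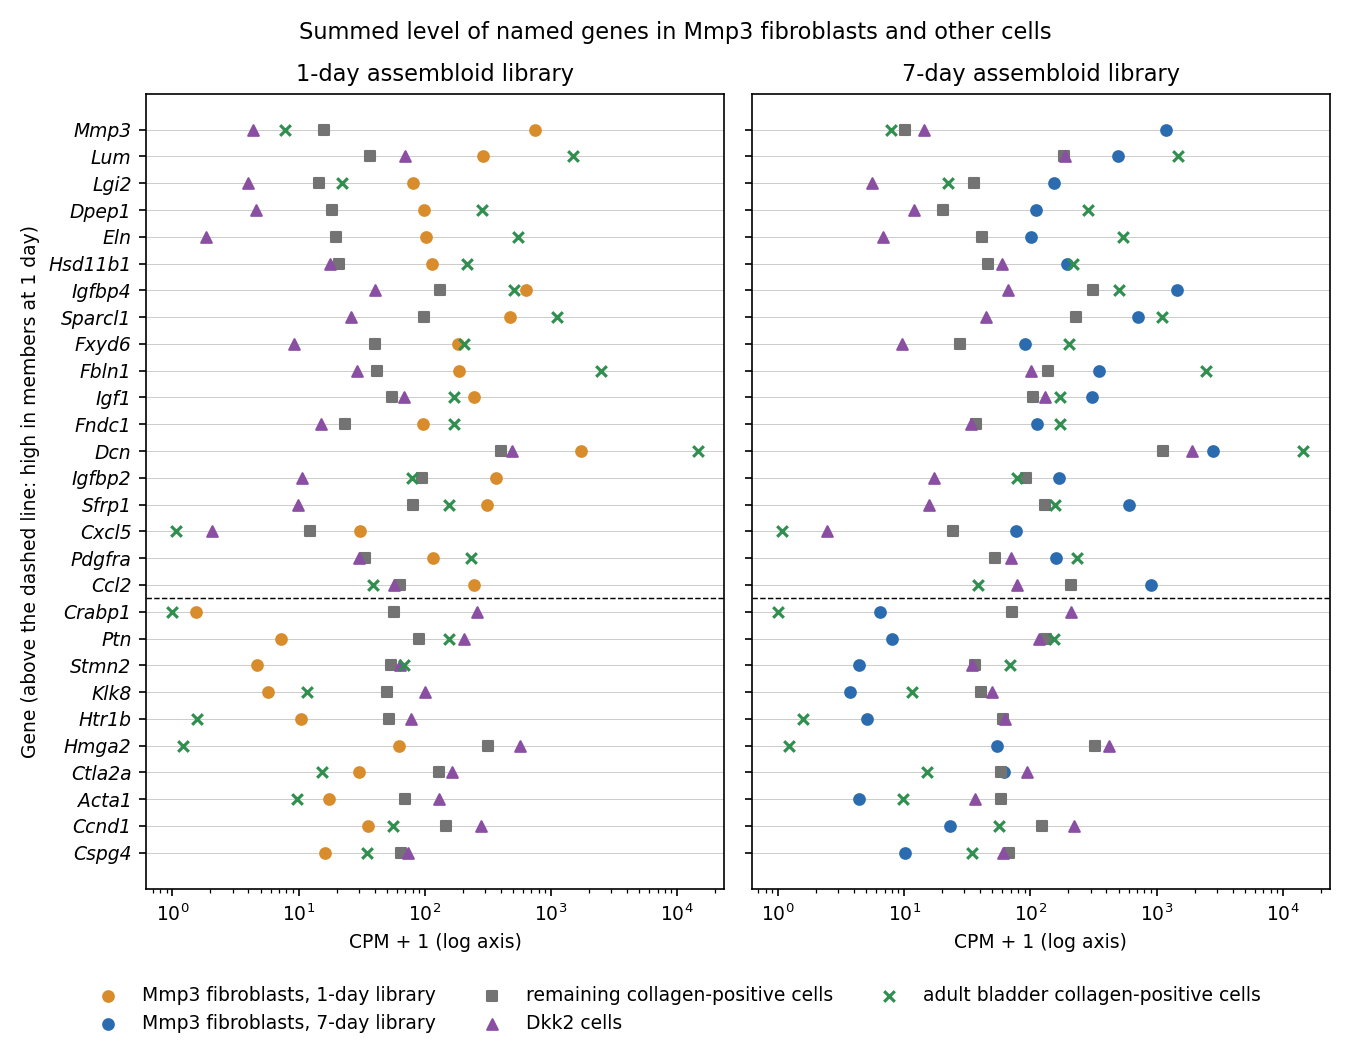
Summed level (CPM plus 1, log axis) of the genes with the highest and lowest ratios in 1-day members, with Cxcl5, Pdgfra and Ccl2 added, in members, remaining collagen-positive cells, cells with 2 or more Dkk2 UMIs (Dkk2 cells) and adult bladder collagen-positive cells, for the 1-day library (left) and the 7-day library (right). Members lie to the right of the other assembloid cells above the dashed line in both libraries and to the left below it, but for Ctla2a at 7 days (60.7 CPM in members). Bladder cells hold Dcn and Lum above the members and Mmp3 (6.85 CPM) far below them.

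Of the metalloproteinases and their inhibitors, 2 of the 10 genes measured were higher in members at 1 day, Mmp3 itself and Mmp10, and none was lower. Mmp10 stood at 33.6 CPM against 3.74 CPM, a log2 ratio of 3.18 [2.76 to 3.56], and was found in 29.1% of members. At 7 days Mmp10 was at 13.5 CPM against 5.71 CPM, under the 20 CPM asked for, and Mmp3 was the only 1 of 8 to differ. The gelatinase gene Mmp2 stood at 91.4 against 95.4 CPM at 1 day, and the membrane protease gene Mmp14 at 209 against 208 CPM, with a log2 ratio of 0.01 [-0.14 to 0.15]. Timp1, whose protein inhibits Mmp3, was abundant at 6241 CPM against 3480 CPM, a log2 ratio of 0.84 [0.82 to 0.87]. Among other matrix proteases and inhibitors, 3 of 18 were higher at 1 day, Serping1, Ctsk and Adamts2, of which Adamts2, the procollagen N-proteinase, was also higher at 7 days.

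The IGF system moved in both directions. At 1 day 3 of 10 genes measured were higher in members (Igf1, Igfbp2 and Igfbp4) and 3 were lower (Igfbp5, Pappa and Stc2), with a list median log2 ratio of 0.62. At 7 days the same 3 were higher, and Igf1r, Igfbp5 and Pappa were lower, against all other cells and against assembloid-side cells. Igfbp4, which binds and inhibits IGF, was the most abundant at 637 CPM against 126 CPM at 1 day, with a log2 ratio of 2.34 [2.25 to 2.42], and at 1456 against 294 CPM at 7 days. Pappa, the protease that cleaves Igfbp4 and frees IGF, stood at 33.6 against 77.8 CPM at 1 day and at 25.9 against 81.6 CPM at 7 days. The receptor Igf1r stood at 56.2 against 93.6 CPM and at 47.7 against 100.5 CPM. At 1 day Igf1r was thus under 2-fold.

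Igfbp2 rested on few cells. It was at 366 CPM against 89.7 CPM at 1 day but was found in only 29.1% of members, with a median of 0 and a maximum of 166 UMIs in a cell. Urothelial-profile cells of that library held 688 CPM of Igfbp2. Whether RNA from those cells contributed to the members' level was not tested.

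Several genes of the matrix were higher in members. Of 6 small leucine-rich proteoglycans measured, Lum (used by the rule), Dcn and Prelp were higher at 1 day and Aspn was lower. Dcn, decorin, stood at 1719 against 407 CPM, and Prelp at 117 against 31.3 CPM. At 7 days, against all other cells, only Prelp was higher and Aspn lower, of 7. Against assembloid-side cells Lum, Dcn, Fmod and Prelp were higher, so the call for Lum and Dcn turned on whether bladder-side cells were counted. Of 20 spondins, elastic fibre and matricellular genes, 7 were higher at 1 day and none lower: Spon2, Sparcl1, Wisp2, Fbln1, Mfap2, Mfap4 and Eln. Spon2 stood at 323 against 85.6 CPM at 1 day and at 283 against 135 CPM at 7 days. Eln, tropoelastin, stood at 101 against 17.6 CPM but was found in 31.1% of members. Of 18 collagens, Col3a1, Col14a1 and Col15a1 were higher at 1 day and Col18a1 was lower. Col3a1, the fibrillar collagen of compliant tissues, stood at 3199 against 1186 CPM at 1 day and at 4574 against 2239 CPM at 7 days.

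Chemokine genes were high in members at both ages. At 1 day 5 of 8 measured were higher (Cxcl5, Cxcl16, Cx3cl1, Ccl2 and Ccl11) and none was lower, with a list median log2 ratio of 1.72. At 7 days 8 of 9 were higher and none lower against either set of cells, with medians of 1.61 and 1.64, and Cxcl12, Ccl7 and Ccl8 joined those 5. Cxcl5, a marker of the cells but not used by the rule, stood at 29.9 against 10.8 CPM at 1 day and at 76.2 against 20.4 CPM at 7 days. Ccl2, which draws monocytes, stood at 244 against 62.5 CPM and at 898 against 191 CPM. In single members Ccl2 ranged from 0 to a median of 0 and a maximum of 84 UMIs at 1 day, and from 0 to 3 to 215 at 7 days. The 10 richest cells held 82.5% of its UMIs at 1 day and 35.5% at 7 days, so the 1-day level rested on few cells.

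Cytokine and acute-phase genes were also higher in part. Of 14 measured at 1 day, Il1r1, Il6, Il11, Lif, C3 and Icam1 were higher in members and none was lower. At 7 days 7 of 16 were higher against all other cells (Il1r1, Il6, Lif, Tslp, Saa3, Vcam1 and Icam1), and against assembloid-side cells C3 as well. Il6 was at 25.7 against 10.3 CPM at 1 day and at 29.7 against 10.0 CPM at 7 days. Il11, an IL-6 family cytokine linked to fibroblast activation, stood at 529 against 181 CPM at 1 day, a log2 ratio of 1.55 [1.45 to 1.64]. Lif, of the same family, stood at 34.1 against 10.3 CPM and at 29.5 against 5.76 CPM. Ptx3, a soluble pattern recognition protein, stood at 155 against 43.9 CPM and at 393 against 78.3 CPM.

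All 5 complement genes measured at 1 day were higher in members: C1ra, C1s1, C3, Serping1 and Cd55, with a list median log2 ratio of 1.88. Serping1, the C1 inhibitor, stood at 192 against 52.2 CPM. At 7 days none of 6 passed against all other cells, and 4 of 5 passed against assembloid-side cells (C1ra, C1s1, C3 and Serping1). C3 stood at 41.6 CPM in 7-day members, at 33.0 CPM in all other cells, at 7.11 CPM in assembloid-side ones and at 514 CPM in collagen-positive cells of adult bladder. C1ra and C1s1 have close copies in the mouse genome, and how reads were split among them is not given in the labels or headers.

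Secreted regulators of Wnt and BMP signalling differed in both directions. Of 6 Wnt ligands and inhibitors at 1 day, Wnt2, Dkk3, Sfrp1 and Frzb were higher and Wnt5a was lower. At 7 days Sfrp1, Sfrp2 and Frzb were higher and Wnt5a lower, together with Dkk2, which the rule capped. Sfrp1, a secreted Wnt antagonist, stood at 309 against 76.2 CPM at 1 day and at 605 against 118 CPM at 7 days. Wnt5a stood at 27.3 against 55.8 CPM, and its log2 ratio at 7 days was -1.58. Of 16 BMP and TGF-beta genes, Bmp4 and Gdf10 were higher at 1 day. Gdf10 stood at 36.8 against 2.57 CPM at 1 day and at 62.1 against 12.1 CPM at 7 days. Bmp4 stood at 51.5 against 23.9 CPM at 1 day and at 83.6 against 108 CPM at 7 days, so the call did not hold at 7 days.

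Few of the fibroblast transcription factors differed in members, while most of the Hox genes measured were lower. Of 20 fibroblast factors measured at 1 day, Tcf21 and Cebpb were higher and Snai2 was lower, and the same 3 differed at 7 days. Over all genes 3.08% were higher and 2.2% lower at 1 day. Tcf21, a factor of mesenchymal progenitors in visceral organs, stood at 47.3 against 9.89 CPM at 1 day and at 122 against 44.3 CPM at 7 days. Of 5 Hox genes measured at 1 day, 4 were lower in members (Hoxb9, Hoxc8, Hoxc9 and Hoxc10). Hoxc8 stood at 3.15 CPM in members against 46.9 CPM in the other cells at 1 day, at 4.72 against 56.0 CPM at 7 days, and at 3.00 CPM in collagen-positive cells of adult bladder. Hoxb9 stood at 4.73 against 38.4 CPM, at 1.57 against 42.3 CPM, and at 1.78 CPM in bladder. Hoxa13, active in the caudal part of the body that forms the bladder, stood at 14.2 against 6.53 CPM at 1 day, under the level asked for. It stood at 20.2 against 9.42 CPM at 7 days and at 31.0 CPM in bladder. At Hoxc8, Hoxb9 and Hoxa13 the members thus lay nearer to adult bladder cells than the other assembloid cells did. Hoxc9 and Hoxc10 are not set beside bladder here, so this does not cover the Hox list as a whole.

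The 10 genes with the lowest ratios at 1 day were Crabp1, Ptn, Stmn2, Klk8, Htr1b, Hmga2, Ctla2a, Acta1, Ccnd1 and Cspg4. Crabp1, a retinoic acid binding protein, was at 1 UMI in all 1-day members together (0.525 CPM) against 67.8 CPM in the other cells, and at 5.40 against 82.8 CPM at 7 days. It was not detected in collagen-positive bladder cells. Hmga2, a chromatin protein of embryonic and proliferating cells, stood at 61.4 against 329 CPM and at 53.1 against 322 CPM, and at 0.214 CPM in bladder. Ccnd1, cyclin D1, stood at 34.7 against 153 CPM and at 22.3 against 131 CPM. Several of these genes (Crabp1, Ptn, Stmn2 and Klk8) were over 5 times higher in all other mouse cells of the library than in members, and their few UMIs in members are not read as expression. The rule capped other cell cycle genes, and its part in the low Ccnd1 was not tested.

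None of the 14 contractile genes differed 2-fold at 1 day. At 7 days Cnn1, Myh11 and Des were lower in members than in all other cells, and Cnn1, Myh11 and Lmod1 than in assembloid-side cells. Acta2, smooth muscle actin, stood at 9143 against 8853 CPM at 1 day and at 5152 against 7698 CPM at 7 days. Members were thus rich in Acta2 RNA at both ages, above the 2008 CPM of collagen-positive bladder cells.

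Within the members, cells were ordered by their Mmp3 UMIs per mouse UMI and split into 3 equal parts by rank. The part with most Mmp3 was shallower, at a median of 14119 against 22090 UMIs at 1 day and 18610 against 24456 at 7 days. At 7 days Tslp, the epithelial and stromal alarmin, stood at 9.81, 25.8 and 132 CPM from low to high Mmp3. These levels rested on 17, 37 and 169 UMIs, and a single cell held a large part of the last. Igfbp4 stood at 1004, 1417 and 2110 CPM and Sfrp1 at 381, 633 and 876 CPM. Igf1 stood at 294, 300 and 337 CPM. At 1 day Igfbp4 stood at 666, 352 and 997 CPM and Igf1 at 283, 181 and 271 CPM, with the lowest level of both in the middle part. Sfrp1 stood at 243, 255 and 491 CPM and Il11 at 610, 645 and 237 CPM. Tslp rested there on 5, 3 and 8 UMIs, too few to order the parts. The rule used Mmp3, so the split describes the chosen cells, and the part depth played was not tested.

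**Figure D3:**
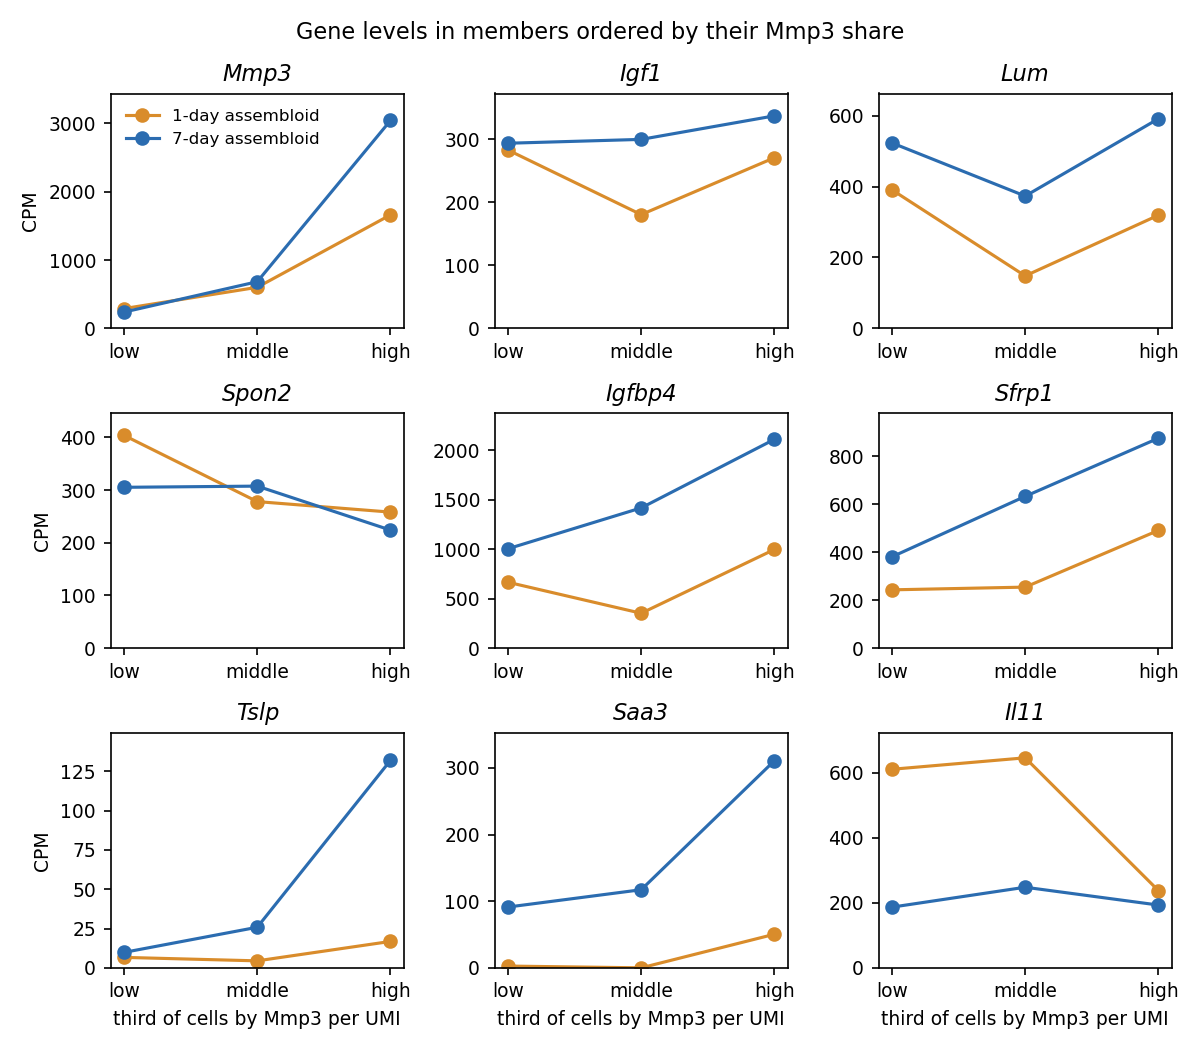
Summed level (CPM) of 9 genes in members of each library, split by rank of Mmp3 per mouse UMI into low, middle and high parts; 35, 34 and 34 cells at 1 day and 69 each at 7 days. At 7 days Igfbp4, Sfrp1 and Tslp increase along the order, Igf1 stays between 294 and 337 CPM, and Lum is lowest in the middle part. A single cell held a large part of the Tslp UMIs of the high part at 7 days.

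The comparison of ages asks how these fibroblasts differed between 1-day and 7-day assembloids. Of 5569 genes, 76 were higher in 7-day members (1.36%) and 48 lower (0.862%), 2.23% in all, by the same rule of at least 2-fold and 20 CPM. In the other collagen-positive cells, 47 of 5534 genes were higher in assembloid-side cells at 7 days (0.849%) and 28 lower (0.506%). Of the 76 genes higher in members 23 were also higher in the other cells, and of the 48 lower ones 1 was also lower. The median log2 ratio of all genes was 0.01. Of the markers, Mmp3 had a log2 ratio of 0.68 [0.59 to 0.76], Lum of 0.78 [0.65 to 0.92], Igf1 of 0.34 [0.19 to 0.49] and Spon2 of -0.19 [-0.33 to -0.05], none of them 2-fold. Among members with at least 10 Mmp3 UMIs the log2 ratio of Lum was 1.13. Cxcl5 had one of 1.34 [0.94 to 1.78], which ranged from 0.14 to 1.54 over the alternatives tried. The other cells held 37.7 and 184 CPM of Lum and 55.2 and 110 CPM of Igf1, while the rule set the members' Mmp3 and Lum.

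The members of the 2 pools differed in sex-linked RNA. Members with a Xist UMI, the RNA of the inactive X chromosome, numbered 25 of 103 (24.3%) at 1 day and 3 of 207 (1.45%) at 7 days. Members with a UMI of a Y-linked gene made up 66.0% and 92.8%. Without members that held Xist, 79 genes were higher and 43 lower at 7 days, of which 59 and 38 were among the 76 and 48 of all members. Sex, pool and age cannot be told apart in these libraries.

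The 10 highest ratios at 7 days were those of Saa3, Tslp, Cxcl14, Serpina3g, Fosb, Ccl2, Ifitm1, Nfkbia, Fos and Cpxm1. Saa3, an acute-phase serum amyloid, stood at 13.7 CPM at 1 day and 163 CPM at 7 days, a log2 ratio of 3.55 [3.01 to 4.20]. It was found in 2.91% and 14% of members, with at most 21 and 169 UMIs in a cell, and 10 cells held 83.1% of its UMIs at 7 days. Thinned to 5000 UMIs, 12.1% of 7-day members and 0.971% of 1-day members held Saa3. Ccl2 stood at 244 and 898 CPM, a log2 ratio of 1.88 [1.74 to 2.02], and 1.51 without members holding Xist. In thinned cells Ccl2 was found in 24.3% [16.4 to 33.7] of members at 1 day and 55.6% [48.5 to 62.4] at 7 days. The other cells showed a like difference, at 62.5 and 200 CPM for Ccl2 and 2.66 and 20.5 CPM for Saa3. Among 7-day members, Saa3 and Ccl2 had a Spearman correlation of 0.45 over 207 thinned cells, and 24 of the 25 cells with Saa3 held Ccl2.

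Tslp stood at 8.40 and 50.1 CPM in members, a log2 ratio of 2.54 [1.85 to 3.41], and at 6.71 and 8.78 CPM in the other cells. Its highest member at 7 days held 63 UMIs, and 23.2% of members held any. Cxcl14, a chemokine of epithelium and stroma, stood at 75.6 and 317 CPM in members and at 109 and 166 CPM in the other cells. Of 9 chemokines measured, 5 were higher at 7 days (Cxcl5, Cxcl12, Cxcl14, Ccl2 and Ccl7) and none lower, with a list median log2 ratio of 1.22. Over all genes 1.36% were higher in 7-day members and 0.862% lower. Cxcl12, the ligand of Cxcr4, stood at 245 and 603 CPM and ranged from 0 to a median of 2 and a maximum of 55 UMIs at 1 day, and from 0 to 9 to 82 at 7 days. Without members holding Xist, Ccl7 had a log2 ratio of 0.96 and Cxcl5 of 0.94, under 2-fold, and Cxcl12 of 1.09. Of 16 inflammatory genes, Tslp, Nfkbia, Saa3 and Icam1 were higher and Il11 and Ptgs2 lower. Nfkbia, the NF-kappaB inhibitor that NF-kappaB itself induces, stood at 30.5 and 103 CPM. Of 15 immediate early genes, which tissue dissociation is known to induce, Fos and Fosb were higher. Fos stood at 69.3 and 216 CPM in members, at 47.3 and 102 CPM in the other cells, and at 3038 CPM in bladder cells, and the part dissociation played was not tested.

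Ifitm1, an interferon-inducible membrane protein, stood at 48.8 and 171 CPM in members and at 6.43 and 69.3 CPM in the other cells. With the gates per 10,000 UMIs its log2 ratio in members was 0.47, under 2-fold. Cpxm1, a secreted carboxypeptidase-like protein, stood at 49.9 and 143 CPM. Serpina3g, a serine protease inhibitor gene with close copies in the mouse genome, stood at 25.2 and 99.6 CPM, and like that of Ccl8 its level is uncertain for that reason. Tcf21 was higher at 7 days, at 47.3 and 122 CPM, a log2 ratio of 1.36 [1.04 to 1.71]. It was the only 1 of 18 fibroblast factors past 2-fold. As the levels above show, Tcf21 was also more than 2-fold higher at 7 days in the other collagen-positive cells, bladder-side cells included. The other age values of those cells use assembloid-side cells at 7 days. That value is not given for Tcf21, so whether the difference holds without bladder-side cells is not shown. Igfbp4 stood at 637 and 1456 CPM, a log2 ratio of 1.19 [1.10 to 1.28], ranging from 0 to a median of 6 and a maximum of 74 UMIs at 1 day and from 0 to 26 to 164 at 7 days. The other cells went the same way for Igfbp4, at 126 and 283 CPM. Igfbp3 was also higher, at 8.93 and 34.6 CPM, and Igfbp2 lower, at 366 and 168 CPM.

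The 10 lowest ratios at 7 days were those of Prss23, Slc1a6, Ptgs2, Timp1, Il11, Ankrd1, Ptprn, Itga5, Aldh1a3 and Cnn1. Timp1 stood at 6241 CPM at 1 day and 2413 CPM at 7 days, a log2 ratio of -1.37 [-1.41 to -1.33]. It ranged from 2 to a median of 103 and a maximum of 584 UMIs per member at 1 day and from 1 to 41 to 233 at 7 days, so the ranges overlapped while most 7-day cells lay lower. The other cells held 3480 and 1897 CPM of Timp1. Prss23, a secreted serine protease, stood at 694 and 246 CPM in members and at 876 and 740 CPM in the other cells. Il11 stood at 529 and 208 CPM, a log2 ratio of -1.35 [-1.48 to -1.22], and ranged from 0 to a median of 2 and a maximum of 113 UMIs and from 0 to 1 to 74. With the gates per 10,000 UMIs the log2 ratio of Il11 was 0.28, so its direction depended on which cells counted as members. Ptgs2, cyclooxygenase 2, stood at 237 and 90.4 CPM.

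Of 14 contractile genes measured, Cnn1 and Actg2 were lower at 7 days and none was higher, with a list median log2 ratio of -0.52. Over all genes 0.862% were lower in 7-day members and 1.36% higher. Among members with at least 1 Lum UMI, Cnn1 had a log2 ratio of -0.87 and Actg2 of -0.78, both under 2-fold. Cnn1, calponin 1, stood at 517 and 225 CPM in members and at 640 and 542 CPM in the other cells. Acta2 stood at 9143 and 5152 CPM in members and at 8853 and 8018 CPM in the other cells. Ankrd1, a known target of the mechanosensitive factor Yap, stood at 140 and 55.1 CPM, with a log2 ratio of -0.86 without members holding Xist and of -0.16 among members with at least 1 Lum UMI. Itga5, the fibronectin receptor subunit, stood at 219 and 89.7 CPM, and Inhba, the activin A subunit, at 702 and 310 CPM against 776 and 682 CPM in the other cells. Of the metalloproteinase list, Mmp11 was higher at 7 days, at 15.2 and 34.6 CPM, and Mmp10 lower with Timp1, at 33.6 and 13.5 CPM. Whether the difference of any of these genes between ages was larger in members than in the other cells was not tested, since each age had 1 library.

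**Figure D4:**
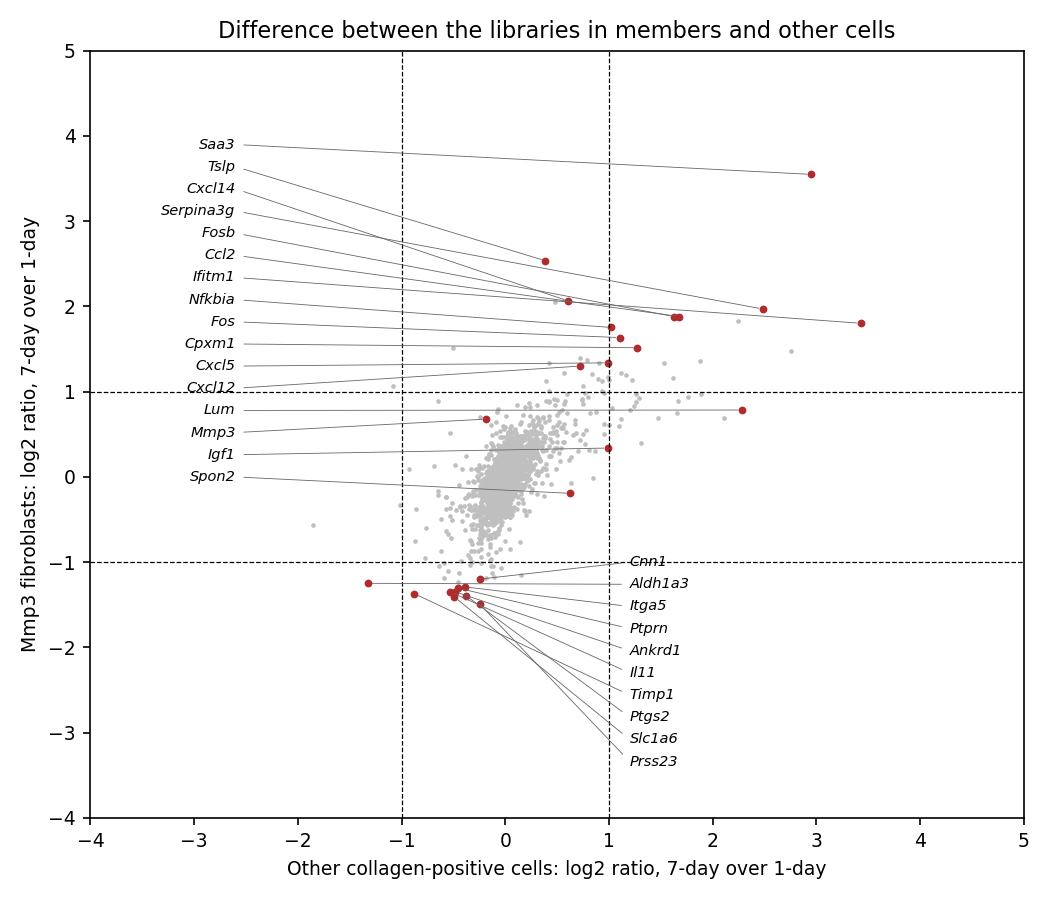
Log2 ratio of 7-day over 1-day summed levels in members (vertical axis) and in the other collagen-positive cells (horizontal axis, assembloid-side at 7 days), 1 point per gene with at least 50 CPM in members at either age (2862 genes, 2 outside the axes); dashed lines mark 2-fold. Saa3, Ccl2 and Serpina3g lie high on both axes, Tslp lies at 2.54 on the vertical and 0.39 on the horizontal axis, Lum at 0.78 and 2.29, and Prss23 at -1.50 and -0.24; differences between the axes were not tested.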

How the data were processed

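Mouse bladder and bladder assembloid cells were counted with Cell Ranger, version 3.1.0 per the file headers, on a combined human and mouse gene set (GRCh38 and mm10, per the submitters' processing notes). Each deposited matrix gives whole UMI counts of a gene in a barcode, which the authors had not normalized. The annotation release, cell-calling settings and any doublet removal are not given in the labels or headers used. Mouse cells had at least 90% of UMIs on mouse genes, at least 500 genes and under 20% mitochondrial UMIs. The rule in the opening paragraph then chose the members. The members, gene lists and tests were chosen with earlier results of these data known.

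UMI counts were summed per set of cells and scaled to CPM, where all mouse UMIs of a set add up to 1000000. Log2 ratios had 0.5 counts added to each sum, with exact conditional binomial intervals, and shares had Clopper-Pearson intervals. With 1 library per group no test, p-value or standard error is given, and cells are not replicates. UMI totals per library set the depth, and intervals cover counting error only. Assembloid-side cells were those with at most 5% bladder cells among their 30 nearest bladder and 1-day collagen-positive cells, over 30 components of 2000 variable genes. Scrublet (scanpy 1.11.5) was used only for an alternative without doublets. It called 238, 280 and 202 cells (3.39%, 3.28% and 2.41%).

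Named genes were the rule's genes and markers, the 15 highest and 10 lowest ratios of 1-day members, the 10 highest and 10 lowest ratios between ages (all with at least 50 CPM), and list members by level or ratio. Mitochondrial, ribosomal, hemoglobin, sex-linked and predicted genes were left out, but for Xist as a check of the pools. Genes with over 5 times more CPM in all other mouse cells were not read as expressed. A few others, among them Ptx3, Mmp2, Mmp14, Acta2, Inhba and the lower-ranked members of the lists, were named after their values were seen. Positions came from GENCODE vM21 (mm10) for 229 of 229 gene IDs. The ratio code was tested on simulated data. Analyses ran in Python 3.11.15 with pandas 2.3.3, numpy 2.4.6, matplotlib 3.10.9, scikit-learn 1.9.0 and scipy 1.17.1. Results for some members of the BMP and retinoid lists are not reported here.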

Additional observations from a re-analysis of the deposited data

Results flagged for a closer look

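Ctla2a, which encodes an inhibitor of cysteine proteases, had summed ratios between ages of opposite sign in the members and in the other collagen-positive cells. In members it stood at 28.9 CPM at 1 day and 60.7 CPM at 7 days, a log2 ratio of 1.06 [0.65 to 1.52]. In the other cells it stood at 131 and 61.8 CPM, a log2 ratio of -1.09 [-1.14 to -1.03]. It was found in 18.4% of 1-day members, with at most 11 UMIs in a cell, and in 8.21% of 7-day members, where 1 cell held 176 of its 270 UMIs, so the higher summed level at 7 days rests on that cell. All other mouse cells of the libraries held 322 and 158 CPM of Ctla2a, and the members' UMIs at 1 day are not read as expression. The mouse genome has a close copy, Ctla2b, and with 1 library per age the difference between the directions was not tested.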

How the results depend on the processing

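No paired analysis was possible because each age had 1 library, so no result has a replicate block or a replicate to leave out. The share of members among collagen-positive cells was 0.784% at 1 day and 2.43% at 7 days with gates per 10,000 mouse UMIs, 1.03% and 2.78% with at least 10 Mmp3 UMIs, and 2.04% and 5.47% with a collagen gate of 30 per 10,000. It was 6.37% at 7 days among assembloid-side cells, an alternative chosen after seeing the data. The counts of genes higher and lower at 7 days were 21 and 20 with at least 100 CPM, 1523 and 1415 with no minimum level, 298 and 196 at 1.5-fold, 127 and 114 with gates per 10,000 UMIs, 127 and 87 with at least 10 Mmp3 UMIs, and 205 and 180 with every member thinned to 5000 UMIs. Against the other cells of the 1-day library, 66 genes were higher and 21 lower with at least 100 CPM, 302 and 205 with gates per 10,000 UMIs, and 206 lower with the mean of per-cell CPM. At 7 days, 69 were higher and 37 lower with at least 100 CPM, and 98 and 428 with the mean of per-cell CPM. Thinned to 2500 UMIs, Mmp3, Lum and Igf1 were found in 75.7%, 45.6% and 42.7% of 1-day members, and Mmp3, Lum, Igf1, Spon2 and Cxcl5 in 77.8%, 64.7%, 50.2%, 42.0% and 13.5% of 7-day members. Without thinning the shares of these 5 genes were 100%, 78.6%, 83.5%, 72.8% and 15.5% at 1 day and 100%, 94.7%, 85.5%, 77.3% and 31.4% at 7 days. The minimum level, the fold and the thinning change how many genes can pass by their construction, and for the other alternatives the cause was not tested.

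Of the values of single genes under an alternative, 598 stayed within their counting interval, 198 moved out of it, and 2 more turned the direction of a gene past 2-fold. Il11 had a log2 ratio between ages of 0.28 with gates per 10,000 UMIs, and Dpep1 had one of -0.10 against the other 7-day cells with the mean of per-cell CPM. Over all alternatives the log2 ratio between ages ranged from 2.51 to 5.76 for Saa3, 2.17 to 3.11 for Tslp, 1.19 to 2.57 for Ccl2, 0.14 to 1.54 for Cxcl5, 0.15 to 0.59 for Igf1, -0.41 to 0.04 for Spon2, -1.43 to -1.05 for Timp1 and -1.66 to -1.28 for Prss23. Under at least 1 alternative the ratio also fell under 2-fold for genes past it in the report: the value nearest 0 was 0.27 for Adm, 0.47 for Ifitm1, 0.52 for Ccl7, 0.64 for Icam1, 0.70 for Mmp11, 0.75 for Igfbp3, 0.88 for Igfbp4, 0.93 for Cxcl12, 0.96 for Id1, -0.16 for Ankrd1, -0.73 for Igfbp2, -0.77 for Inhba, -0.78 for Actg2, -0.87 for Cnn1 and -0.98 for Mmp10.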

Other observations

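Growth factors that act on epithelium differed in the members in both directions. Of 11 measured at 1 day, Ereg and Vegfd were higher than in the other collagen-positive cells and Hbegf, Pdgfa and Kitl were lower. At 7 days Fgf2 and Vegfd were higher and Hbegf and Pdgfa lower, of 10, against all other cells and against assembloid-side cells. Over all genes 3.08% were higher and 2.2% lower at 1 day, and 2.78% and 2.97% at 7 days against all other cells. Vegfd, a ligand of lymphatic and vascular receptors, stood at 123 against 39.6 CPM at 1 day and at 230 against 64.1 CPM at 7 days. Ereg, the EGF receptor ligand epiregulin, stood at 72.5 against 35.3 CPM and at 71.1 against 36.3 CPM, while Hbegf, another ligand of that receptor, stood at 43.1 against 115 CPM and at 26.1 against 112 CPM. Fgf7, the keratinocyte growth factor, stood at 48.8 against 29.1 CPM and at 76.9 against 40.7 CPM, under 2-fold.

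Adm, adrenomedullin, a vasodilator peptide that hypoxia induces, was the only 1 of 15 hypoxia and glycolysis genes past 2-fold in members, at 121 against 60.5 CPM at 1 day and 283 against 127 CPM at 7 days. Of all genes, 3.08% were higher in members at 1 day and 2.78% at 7 days. Between ages 1.36% were higher in members. Adm was also the only 1 of the 15 that differed between ages, with a log2 ratio of 1.22 [1.02 to 1.43] in members and 1.12 [1.06 to 1.17] in the other cells. In members this ratio was 0.27 with gates per 10,000 UMIs and 0.95 with the mean of per-cell CPM, both under 2-fold. Id1 and Id2, direct targets of BMP signalling, were higher in 7-day members at 355 and 174 CPM against 176 and 66.7 CPM at 1 day. Under an alternative the log2 ratio of Id1 was 0.96, under 2-fold. Inhba, of the same BMP and TGF-beta list, was lower at 7 days. The levels of Id1 and Id2 in the other cells are not given, and a BMP response was not tested.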
